A study of Mus musculus with 4 samples.

Results

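The nuclei described here were chosen by their transcript counts in single-nucleus RNA sequencing (snRNA-seq) of the embryonic mouse cortex, as nuclei rich in Slit3 and Zfp385b. A nucleus was taken when it held 5 or more transcripts of Slit3, 5 or more of Zfp385b, none of Gad1, Gad2 or Eomes, at most 2 each of Hs3st4, Prox1 and Slc1a3, at most 1 of Inhba, and at most 1 of Mki67 and Top2a together. This left 821 of the 29656 nuclei with 1500 to 60000 transcripts, and these 821 are called members below. Because the counts themselves chose the members, the contrasts with other nuclei are a description and carry no test, whereas the comparison between genotypes is tested across libraries.

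The tissue was medial neocortex at E16.5, in late embryonic neurogenesis. The 2 Dnmt1 KO libraries came from Sst-Cre/tdTomato/Dnmt1 loxP2 embryos, in which Cre driven by the somatostatin gene removes the DNA methyltransferase Dnmt1 and switches on a red reporter in somatostatin-lineage interneurons, and the 2 control libraries came from Sst-Cre/tdTomato embryos. Both groups thus carried the Cre and the reporter, and members, having no Gad1 or Gad2 transcript, lie outside the population in which this Cre is expected to act. The libraries held 5640 and 12064 retained nuclei for Dnmt1 KO replicates 1 and 2, and 7047 and 4905 for control replicates 1 and 2. No barcode was shared between libraries. Control replicate 2 was the only library of batch 2 and was deeper, with a median of 21140 transcripts per retained nucleus against 12274 to 12401 in the other libraries. The study counts separate brains for each genotype but ties no library to a brain, so p-values measure the spread between these libraries, which may in part be technical.

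Slit3 encodes a secreted axon-guidance ligand read by Robo receptors, and Zfp385b encodes a zinc-finger protein. On GRCm39 (mm39) Slit3 lies at chr11:35011789-35602786 on the plus strand and Zfp385b at chr2:77240978-77649983 on the minus strand, both protein-coding, and the files give 1 count per gene without separating exons from introns. Nrp2 (chr1:62742444-62857854), the further gene given as a marker of these nuclei, encodes a receptor for class 3 semaphorins. The hippocampus forms at the medial edge of the cortical sheet, next to the neocortex, and its pyramidal neurons are known to keep the transcription factor Zbtb20 (chr16:42696093-43462965) and the kainate receptor subunit Grik4, whereas neocortical projection neurons rely on Cux factors and Foxp2.

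Not all members fitted the label of excitatory neurons. In Dnmt1 KO replicate 2, 51 members held 5 or more transcripts of the choroid plexus genes Ttr, Folr1, Clic6, Kcne2 and Otx2 together, and no member of the other 3 libraries did. CPM are counts summed over the nuclei named and scaled to a total of 1000000. In these 51 nuclei Ttr, which encodes the thyroid hormone carrier transthyretin, stood at 4691 CPM. Slc17a7 was at 1.7 CPM, Neurod2 at 13.5 CPM and Nrp2 at 43.8 CPM. The 770 remaining members had 8.5 CPM of Ttr in Dnmt1 KO replicate 2 and 0.0 in each other library. The 51 nuclei stay among the members, since the rule took them, and the genotype results and the values they move most are given with and without them.

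Members as a whole, the 51 nuclei included, carried transcripts of glutamatergic neurons at levels above those of inhibitory nuclei. Slc17a7, a vesicular glutamate transporter, was at 13.49 and 16.54 CPM in the Dnmt1 KO members and 15.86 and 14.63 CPM in the control members, against 1.9 to 3.9 CPM in nuclei with 3 or more Gad1 and Gad2 transcripts, which should lack it. Neurod2, a neurogenic transcription factor, was at 73.7 to 103.8 CPM in members and 17.96 to 33.1 CPM in the Gad nuclei. Both genes separated the member libraries from the Gad libraries without overlap. After each nucleus was thinned to 5000 transcripts, Neurod2 was seen in 29.7% to 37.8% of members (64.0% to 89.1% unthinned) and in 5.28% to 9.59% of the Gad nuclei (13.2% to 23.8% unthinned). Of the 8 genes of the glutamatergic list, 0 were higher and 3, Slc17a6 and Tbr1 among them, lower in members than in all other retained nuclei.

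The genes that chose the members were far above their thresholds in most nuclei. The median member held 95 and 92 transcripts of Slit3 in the Dnmt1 KO libraries (replicate 1, then 2) and 89 and 158 in the controls, and the medians of Zfp385b were 33, 27.5, 28 and 53 in that order. Control replicate 2 stood highest for both, and it was the deepest library. Nrp2, which the rule did not use, was present at a median of 13, 16, 16 and 30 transcripts. At the edge of the rule, 52 members held exactly 5 transcripts of the scarcer of Slit3 and Zfp385b, with 2963 CPM of Zbtb20 and 556 CPM of Nrp2, and the 45 nuclei just outside, at exactly 4, had 1877 CPM of Zbtb20 and 496 CPM of Nrp2. Of the 1859 nuclei that met both thresholds, 628 exceeded the limit on Hs3st4, 242 held Gad1 or Gad2, 182 exceeded the limit on Slc1a3, 151 held Eomes and 144 exceeded the limit on Prox1, with some failing more than 1 limit.

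To ask which cortical region the members resembled, lists of regional and layer genes were read in members against all other retained nuclei. A list gene was counted as higher when its ratio, after adding 5 CPM to both sides, was 1.5 or more in the mean of libraries and in each of the 4, and as lower when it was at or below the inverse. Over 8435 genes at 10 CPM or more on either side, 2.9% were higher and 8.14% lower by this criterion, and the median ratio was 0.926. The hippocampal pyramidal field list had 4 of 8 genes higher (Zbtb20, Nrp2, Grik4 and Nectin3), 0 lower and a median ratio of 1.87. Nrp2 was given beforehand as a marker of these nuclei, so its place among the 4 is no separate sign of region. The lists were also chosen with earlier results of these data known. The lists are short and of unequal length, and the retrosplenial and cingulate list (Lmo4 and Crym) and the rostral list (Lmo4 and Cdh8) each had 2 of 5 higher and 1 of 5 lower (Tshz2 and Etv1). The upper-layer list had 7 of 7 genes lower, with a median ratio of 0.189, and the layer 6 corticothalamic list had 5 of 6 lower. The layer 5 subcerebral list, on which the rule set no limit, had 0 of 6 higher, 1 (Etv1) lower and a median ratio of 1.15. The limits on Hs3st4, Inhba and Prox1 keep layer 6, upper-layer and dentate nuclei out of the members, so low levels of such genes are in part set by the rule.

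**Figure D1:**
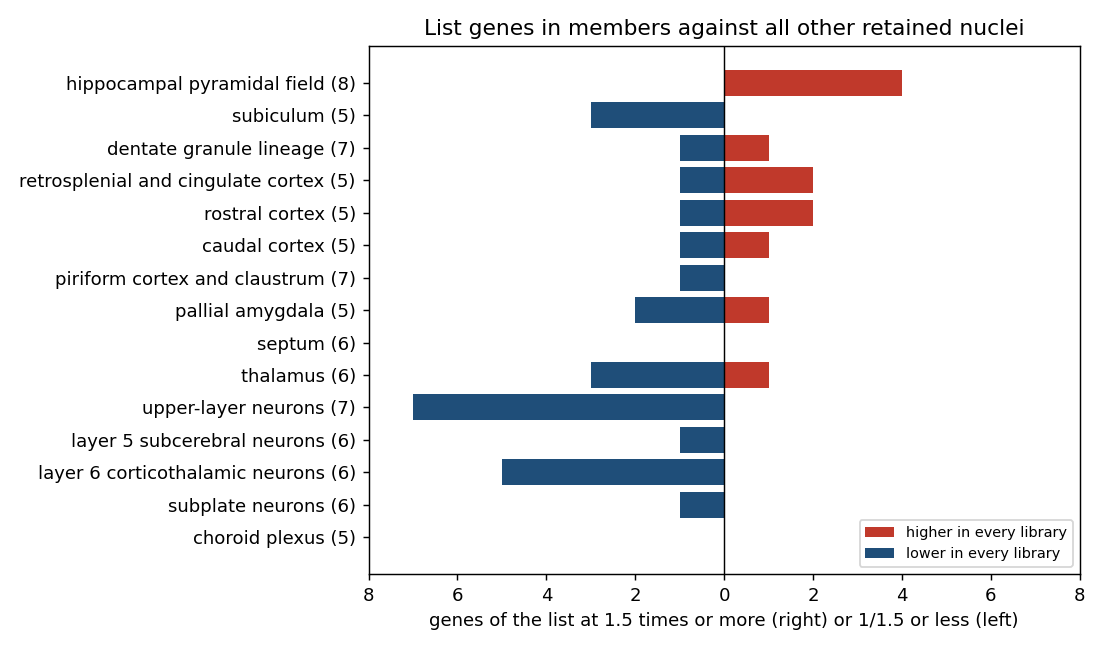
Number of list genes higher (right) or lower (left) in members than in all other retained nuclei in every library, on a horizontal axis of gene counts; the number of genes read is in parentheses. The hippocampal pyramidal field list reaches 4 genes to the right and the upper-layer list 7 to the left.

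The 4 hippocampal genes were high in every library. Zbtb20, a transcription factor needed for hippocampal pyramidal identity, was at 8102 and 7705 CPM in the Dnmt1 KO members and 6657 and 6322 CPM in the control members, against 1400 to 2779 CPM in all other retained nuclei. Nrp2 was at 896, 1111, 997 and 1087 CPM in members in the same order of libraries and at 89.6 to 214 CPM in the other nuclei. Members and other nuclei did not overlap for either gene.

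Grik4, a high-affinity kainate receptor subunit, was at 433, 348, 284 and 275 CPM in members and 46.9 to 56.3 CPM in the other retained nuclei. Nectin3, a cell-adhesion protein, was at 208, 245, 252 and 289 CPM in members and 86.8 to 99.7 CPM in the other nuclei. The other 4 genes of the list did not stand out. Wfs1, an endoplasmic reticulum protein used as a marker of one hippocampal field, averaged 0.4 CPM in members and 1.5 CPM in the other nuclei, close to nothing in both. Man1a averaged 35.9 and 33.8 CPM, Ociad2 9.0 and 7.0 CPM, and Dkk3, a secreted Wnt modulator, 8.9 and 16.48 CPM. Without the 51 nuclei with choroid plexus transcripts the list again had 4 genes higher.

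The regional genes outside the hippocampal list gave a mixed picture. Lmo4, on the retrosplenial and cingulate and the rostral lists, and Crym, on the retrosplenial and cingulate and the caudal lists, were higher, at 111 ± 15.8 and 65.4 ± 6.9 CPM (SD, n = 4 libraries) in members against 31.6 ± 3.8 and 9.5 ± 1.8 CPM in the other retained nuclei. Lhx9, a LIM-homeodomain factor on the amygdala and thalamus lists, was at 68.1 ± 25.3 against 13.7 ± 7.7 CPM, while 2 of 5 genes of the amygdala list (Lmo3 and Meis2) and 3 of 6 of the thalamus list (Tcf7l2, Rora and Slc17a6) were lower. Neurod1, a neurogenic factor on the dentate list, was at 61.5 ± 18.8 against 20.1 ± 3.9 CPM, and Sema5a of that list and Tenm3 of the caudal list were lower. The subiculum, septum, piriform and subplate lists had 0 genes higher.

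The other excitatory nuclei were taken as the nearest contrast, being the 3300 nuclei with 3 or more Neurod6 transcripts, the same limits on inhibitory, progenitor, glial and cycling genes, and no membership. Here 3.72% of 7869 genes were higher and 3.05% lower in every library. The hippocampal list again had 4 of 8 higher, the upper-layer list 7 of 7 lower and the layer 6 list 5 of 6 lower. The layer 5 list had 0 of 6 higher, 1 (Ldb2) lower and a median ratio of 0.846, beside 1.02 over all genes. These nuclei had no limit on Hs3st4, Inhba or Prox1. Against the 1735 of them that met the members' limits on these genes, a comparison chosen after seeing the data, the hippocampal list had 4 of 8 higher and the upper-layer list 7 of 7 lower, but the layer 6 list only 2 of 6 lower and 1, Zfpm2, higher. Neurod6 itself is not compared, because it chose the other side.

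Zbtb20 averaged 7196 ± 844 CPM in members and 709 ± 295 CPM in the other excitatory nuclei, a ratio of 10.1 with 5 CPM added, between 7.13 and 13.7 in single libraries. Beside Zbtb20 and Grik4 (ratio 8.76), the genes with the largest ratios were Tmem132c (14.6), Rerg (13.6), the predicted gene Gm32647 (12.7), Col12a1 (11.6), Itgbl1 (10.1), Fam163a (9.41), Gm45455 (8.09), Tgfbr3 (7.74), Trpc7 (7.53), Pcdh15 (7.52), Kctd16 (7.26), C130073E24Rik (7.12) and Pard3b (6.84). Pard3b in Dnmt1 KO replicate 2 was at 268 CPM with and 159 CPM without the 51 nuclei with choroid plexus transcripts. Rerg, a small GTPase-like growth inhibitor, was at 317, 197, 263 and 158 CPM in members and at 10.7 to 16.2 CPM in the other excitatory nuclei. Tmem132c, a transmembrane protein of a neuronal adhesion family, was at 661, 459, 338 and 167 CPM in members and 11.3 to 29.5 CPM in the others. Tmem132c thus spanned a wide range among member libraries, whereas Itgbl1 stayed at 242 ± 14.3 CPM (SD, n = 4).

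The 10 genes lowest in members relative to other excitatory nuclei included Foxp2. Foxp2, a transcription factor of layer 6 corticothalamic neurons, was at 16.4, 74.9, 20.2 and 24.6 CPM in members (49.8 CPM in Dnmt1 KO replicate 2 without the 51 nuclei with choroid plexus transcripts) and 400 to 793 CPM in the other excitatory nuclei, or 133 to 317 CPM in those within the same limits. Mef2c, an activity-regulated transcription factor, averaged 107 against 1034 CPM. Also among the 10 lowest were Hs3st5 (12.8 against 343 CPM), Robo2 (247 against 3036 CPM), Lrrtm3 (35.1 against 395 CPM), Grm3 (12.3 against 162 CPM), Cdh6 (4.1 against 75.6 CPM), Prickle1 (30.02 against 296 CPM) and Sybu (79.2 against 685 CPM). Dnmt1 KO replicate 1 was the lowest member library for Foxp2, and no member library reached the lowest of the other excitatory libraries for this gene.

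**Figure D2:**
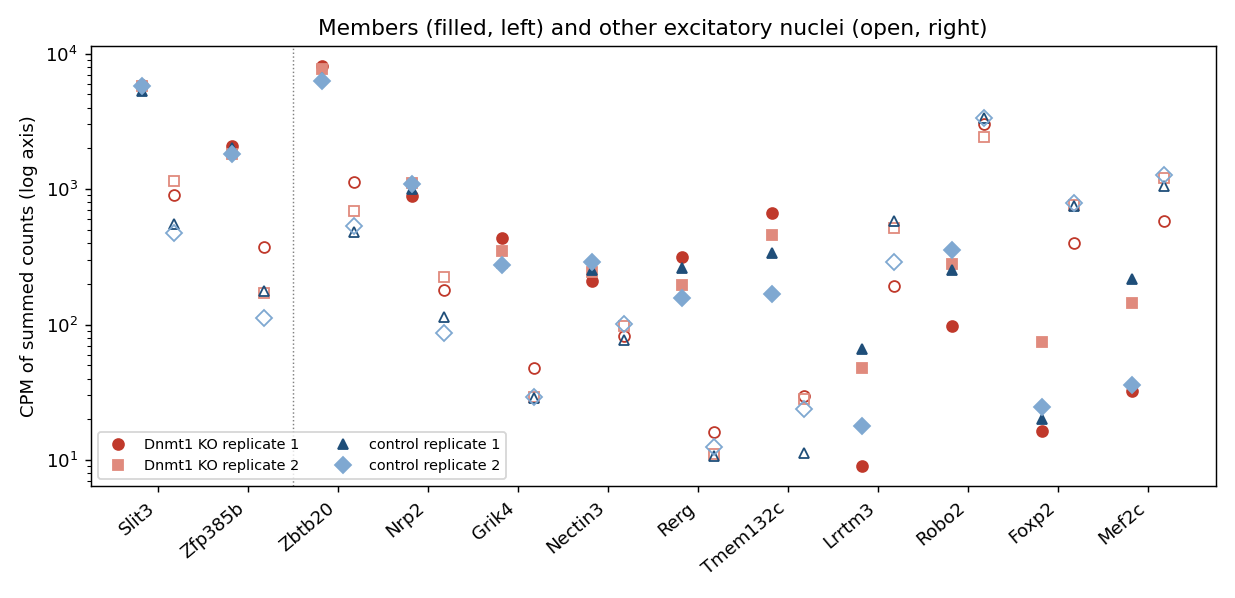
Level of 12 genes in CPM of summed counts on a log axis, with 1 point per library for members (filled, left of each gene) and other excitatory nuclei (open, right). Slit3 and Zfp385b, left of the dotted line, chose the members; Zbtb20 lies at 6322 to 8102 CPM in members and Foxp2 at 16.4 to 74.9 CPM.

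Guidance genes were read because Slit3 is itself a guidance ligand. Over all genes 3.72% were higher and 3.05% lower in members than in other excitatory nuclei. Of the 9 other Slit and Robo pathway genes, 0 were higher and 2, the ligand Slit1 and the receptor Robo2, lower in members than in other excitatory nuclei. Robo1, the companion receptor, was at 4535, 1468, 4462 and 2625 CPM in members and 1465 to 3571 CPM in the other excitatory nuclei, so that the libraries overlapped. In the semaphorin list 3 of 12 genes were higher, the receptors Nrp1 (2805 ± 426 against 1032 ± 80.4 CPM) and Nrp2 and the ligand Sema3c (724 ± 35.6 against 126 ± 20.9 CPM), and 2 were lower, the co-receptor Plxna4 (729 against 2244 CPM) and the ligand Sema3a (50.9 against 105 CPM). Nrp2 was given beforehand as a marker of these nuclei, so it is no separate count here. Of the 7 netrin receptors, Dcc (10653 ± 1316 against 4336 ± 2176 CPM) and Neo1 (918 ± 105 against 404 ± 69.4 CPM) were higher and Unc5d (410 ± 81.6 against 2044 ± 515 CPM) was lower.

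Clustering of the 821 members on their own counts gave 5 groups, whose leading genes are given to identify them and are not findings. Cluster 1 (264 nuclei) was led by Meis2, Gab1 and Plppr1, cluster 2 (243 nuclei) by Ldb2 and Gm30382, cluster 3 (228 nuclei) by Tmem132c, Cdh20 and Grik4, cluster 4 (53 nuclei) by Htr2c and Ttr, and cluster 5 (33 nuclei) by Tafa1 and Egfem1. Cluster 4 lay wholly in Dnmt1 KO replicate 2 and held all 51 nuclei with choroid plexus transcripts. Cluster 5 came from Dnmt1 KO replicate 2 (20 nuclei), control replicate 1 (12) and Dnmt1 KO replicate 1 (1), and had 95.7 CPM of Zbtb20, 979 CPM of the layer 4 factor Rorb and 1256 CPM of Mef2c.

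Levels of the hippocampal list genes in the 3 large clusters are a description, since the same counts made the clusters and Grik4 is a leading gene of cluster 3. Zbtb20 stood at 8364, 4386 and 11531 CPM in clusters 1, 2 and 3, and Nrp2 at 1112, 1257 and 995 CPM. Grik4 was at 131, 45.0 and 938 CPM, so that cluster 2 was not above the 46.9 to 56.3 CPM of the other retained nuclei. Nectin3 ran the other way, at 248, 371 and 168 CPM. Zbtb20 was below 10 transcripts in 68 of the 821 members counted over its 3 lowest classes (24 with none, 16 with 1 or 2, 28 with 3 to 9), and these were 9 of 165 members in Dnmt1 KO replicate 1, 31 of 452 in Dnmt1 KO replicate 2, 21 of 75 in control replicate 1 and 7 of 129 in control replicate 2.

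**Figure D3:**
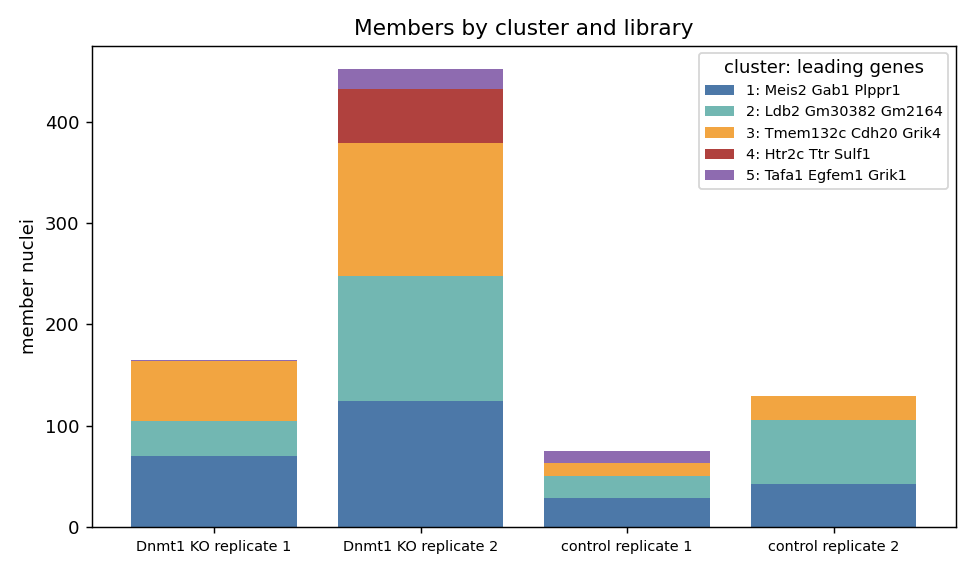
Number of member nuclei in each library, stacked by cluster and named by leading genes. Clusters 1 to 3 occur in all 4 libraries, and cluster 4 (53 nuclei) in Dnmt1 KO replicate 2 alone.

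By genotype, members made up a larger share of the Dnmt1 KO libraries. They were 2.93% of retained nuclei in Dnmt1 KO replicate 1 (165 of 5640; exact binomial 95% interval 2.50% to 3.40%) and 3.75% in replicate 2 (452 of 12064; 3.41% to 4.10%). In the controls they were 1.06% in replicate 1 (75 of 7047; 0.838% to 1.33%) and 2.63% in replicate 2 (129 of 4905; 2.20% to 3.12%). These intervals cover counting error only. The groups did not overlap, and the means of 3.34% ± 0.581 and 1.85% ± 1.11 (SD, n = 2) differed by 1.49 percentage points, with p = 0.333 in a two-sided exact permutation test, the smallest p that 2 against 2 libraries allow. The intervals of Dnmt1 KO replicate 1 and control replicate 2 overlapped. Within batch 1, the only batch with both genotypes, the difference was 2.27 points, and its single control library leaves a smallest exact p of 0.333.

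The difference was 0.706 points without control replicate 1, and under the filter on reads control replicate 2 was at 1.38%. Thinned to 10000 transcripts, with 1850, 4074, 2420 and 500 shallower nuclei left out, members were 4.09%, 5.28%, 1.69% and 3.29% of nuclei. As a percentage of members and other excitatory nuclei they were 22.0%, 36.6%, 9.07% and 9.85%. The other excitatory nuclei, chosen by raw Neurod6 counts, were themselves 10.4%, 6.48%, 10.7% and 24.1% of retained nuclei, highest in the deepest library, and the part of depth was not tested. Without the 51 nuclei with choroid plexus transcripts the share of Dnmt1 KO replicate 2 was 3.32%. Nuclei with 5 or more transcripts each of Prox1 and Zbtb20, genes of the hippocampal granule lineage, were 0.355% and 0.315% of the Dnmt1 KO libraries and 0.0993% and 0.245% of the controls, and members made up 89.2%, 92.2%, 91.5% and 91.5% of the members and these nuclei together, where the groups overlapped. Choroid nuclei (30 or more transcripts of the choroid plexus list, 5 or more of Ttr) numbered 1, 122, 1 and 2. How much hippocampal and midline tissue each dissection held was not tested and cannot be told apart from genotype.

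**Figure D4:**
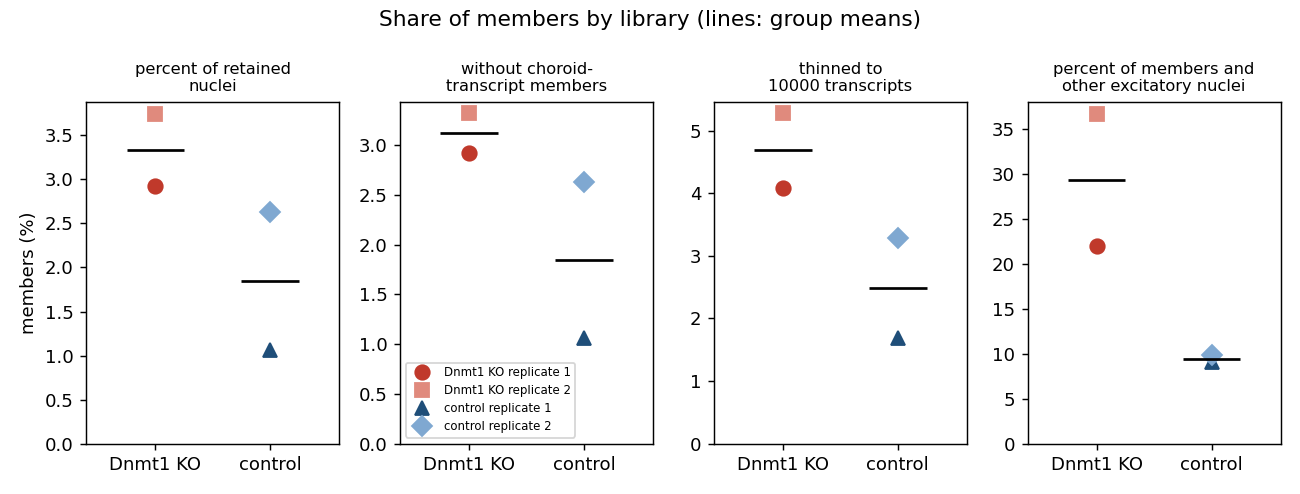
Members as a percentage of nuclei in each library (points) with group means (lines), for all retained nuclei, without nuclei holding choroid plexus transcripts, after thinning, and among excitatory nuclei. The Dnmt1 KO libraries lie above the controls in each panel, at 2.93% and 3.75% against 1.06% and 2.63% in the first.

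Within members, no gene passed the genotype test. Of 11202 genes tested by edgeR's quasi-likelihood test with Benjamini-Hochberg adjustment, 0 were called (0.0%), although 588 reached an unadjusted p under 0.05. Genes of the rule entered the adjustment but are not among the 11202. DESeq2 on the same sums called 27, with 18 higher and 9 lower in Dnmt1 KO. Of these 27, 10 were genes at least 5 times higher in the 51 nuclei with choroid plexus transcripts than in the other members, as were 513 (4.58%) of all genes tested. The median log2 fold change was 0.00. Leaving out Dnmt1 KO replicate 1 gave 352 calls, of which 308 were such genes, and leaving out Dnmt1 KO replicate 2 gave 30, of which 7 were. Without the 51 nuclei edgeR again gave 0 calls and DESeq2 again 27, with 21 genes in both DESeq2 sets. The members are therefore described by the 6 genes with the smallest p in each direction.

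Rmst, a long noncoding RNA of neural progenitors and neurons, was at 168 and 165 CPM in the Dnmt1 KO members and 21.6 and 14.4 CPM in the controls, a log2 fold change of 3.26 ± 0.22 (SE) with an adjusted p of 0.079 in edgeR. Zfp536, a zinc-finger repressor of neuronal differentiation, was at 241 and 200 CPM against 26.7 and 14.1 CPM, a log2 fold change of 3.52 ± 0.31 with an adjusted p of 0.20 in edgeR. Neither gene's groups overlapped, which their choice by the smallest p makes likely. Both were at least 5 times higher in the 51 nuclei than in the other members, and without those nuclei Dnmt1 KO replicate 2 was at 90.6 CPM for Rmst and 135 CPM for Zfp536, still above both controls. The log2 fold change of Rmst was then 2.91, with an adjusted p of 0.25 in edgeR. In the other excitatory nuclei Rmst was likewise apart by genotype, at 99.4 and 44.1 CPM in the Dnmt1 KO libraries and 28.7 and 11.2 CPM in the controls, whereas Zfp536 overlapped, at 165 and 40.2 CPM against 81.1 and 41.8 CPM. Of the 12 genes, Zfp804b, Pld5, Mpped1, Dync1i1 and Ptma were also apart there in the direction seen in members, Fam135b was apart in the opposite direction, and the rest overlapped. Pld5 was near the floor there, at 2.6 and 2.8 CPM in Dnmt1 KO against 1.9 and 0.31 CPM in controls. DESeq2 called Rmst and Zfp536 in members, with adjusted p of 6.5e-22 and 6.0e-20, or 1.1e-09 and 1.4e-12 without the 51 nuclei. Nxn, a thioredoxin-family binder of Dishevelled, was at 45.6 and 62.8 CPM against 7.2 and 4.2 CPM, and Zfp804b at 216 and 345 CPM against 72.1 and 69.2 CPM. Without the 51 nuclei Dnmt1 KO replicate 2 was at 26.7 CPM for Nxn and 159 CPM for Zfp804b. Maml3, a Notch coactivator, and Pld5 complete this direction, at log2 fold changes of 1.25 and 3.24. Pld5 in Dnmt1 KO replicate 2 was at 62.6 CPM with and 34.6 CPM without the 51 nuclei. The groups of all 6 genes did not overlap with or without the 51 nuclei, but genes chosen by the smallest p are likely to be apart. How many of all tested genes were apart, in members or in other excitatory nuclei, was not counted.

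In the other direction, Ldb2, a LIM-domain-binding cofactor, was at 148 and 212 CPM in the Dnmt1 KO members and 525 and 451 CPM in the controls, a log2 fold change of -1.45 ± 0.20. Fam135b was at 43.4 and 50.4 CPM against 105 and 114 CPM, Gm30382 at 42.4 and 29.2 CPM against 154 and 99.0 CPM, and Dync1i1, a dynein intermediate chain, at 192 and 205 CPM against 337 and 329 CPM. Mpped1 and Ptma, which encodes prothymosin alpha, had log2 fold changes of -0.91 and -1.39. Their adjusted p in edgeR lay between 0.36 and 0.66. DESeq2 called 5 of these 6, Ldb2 (adjusted p = 6.6e-06), Gm30382 (0.00025), Fam135b (0.0014), Mpped1 (0.018) and Dync1i1 (0.032), and all 6 of the other direction. Of these 11 genes it called all but Dync1i1 when the 51 nuclei were left out (adjusted p = 0.097 in DESeq2). Ldb2, Gm30382, Fam135b and Dync1i1 were among the 10 leading genes of cluster 2, which held 20.6% and 27.4% of the Dnmt1 KO members and 29.3% and 48.8% of the control members. The part of cluster makeup in these differences was not tested.

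**Figure D5:**
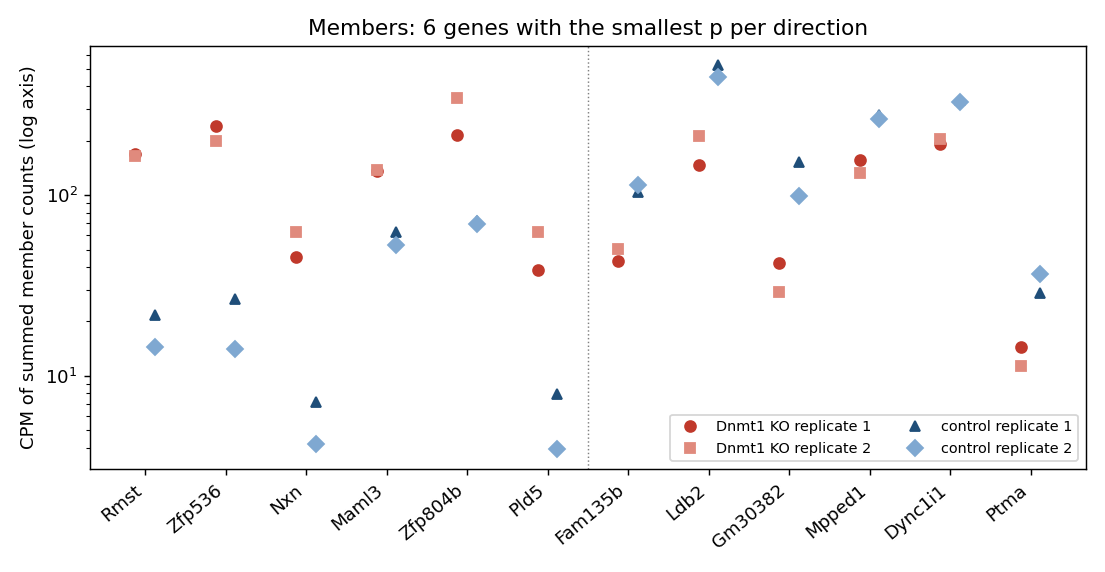
CPM of summed member counts on a log axis for the 6 genes with the smallest p higher in Dnmt1 KO (left of the dotted line) and the 6 lower, with 1 point per library. Rmst lies at 165 to 168 CPM in the Dnmt1 KO libraries and 14.4 to 21.6 CPM in the controls; no gene passed the edgeR threshold.

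No hippocampal list gene passed the edgeR test for genotype. Zbtb20 had a log2 fold change of 0.28 ± 0.16, Grik4 of 0.47 ± 0.16, Nectin3 of -0.26 ± 0.15 and Nrp2 of -0.06 ± 0.16, with adjusted p of 0.86, 0.86, 0.86 and 0.98. Of the 7 hippocampal list genes tested, 0 were called and 2, Grik4 and Man1a, had an unadjusted p under 0.05 in edgeR, both higher in Dnmt1 KO. Over all genes tested 588 of 11202 did, 334 of them higher in Dnmt1 KO. Over the other lists the count ran from 0, as for the netrin receptors (0 of 7), to 3. It was 3 for the immature neuron (3 of 5), layer 5 (3 of 6) and upper-layer (3 of 7) lists, with 0 of these higher in Dnmt1 KO. The layer 6 list also had 3 (3 of 6), with 2 higher. Grik4 was at 433 and 348 CPM in Dnmt1 KO members and 284 and 275 CPM in control members. It is a leading gene of cluster 3, which held 36.4% and 29.0% of the Dnmt1 KO members and 17.3% and 18.6% of the control members, and the part of cluster makeup was not tested here either. Dnmt1 was at 35.6 and 32.2 CPM against 49.0 and 46.8 CPM, a log2 fold change of -0.51 ± 0.17 with an adjusted p of 0.86 in edgeR. Members lie outside the population in which this Cre is expected to act, so this value does not check the labels. The count per gene also does not separate the deleted exons.

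To ask whether genotype differences in members departed from those in other excitatory nuclei, an interaction was fitted in edgeR over 8 sums. Of 14347 genes, those of the rule adjusted for but not counted, 0 were called (0.0%) and 726 had an unadjusted p under 0.05. The smallest p belonged to Ldb2, Fam135b and Gm30382, each lower in the Dnmt1 KO members relative to the other excitatory nuclei, with log2 differences of -1.60 ± 0.14, -1.65 ± 0.15 and -1.78 ± 0.17 and adjusted p of 0.12 in edgeR. Among the other excitatory nuclei Ldb2 ran from 897 to 1109 CPM in the Dnmt1 KO libraries and from 832 to 1037 CPM in the controls, where the groups overlapped. Iqcj, Itgbl1 and Fosl2 followed in this direction. Itgbl1 was not lower in the Dnmt1 KO members themselves, whose 238 to 241 CPM fell inside the control range of 228 to 262 CPM. It was instead higher among the other excitatory nuclei of the Dnmt1 KO libraries (25.0 to 27.4 CPM) than of the controls (12.6 to 13.0 CPM). Dach1, Gulp1, Sema5a, Ebf1, Frem2 and Sulf1 had the smallest p in the other direction. Of these, Sulf1 and Gulp1 were at 211 and 70.0 CPM in members of Dnmt1 KO replicate 2. In members of Dnmt1 KO replicate 1 they were at 0.96 and 6.1 CPM. Without the 51 nuclei with choroid plexus transcripts they were at 6.0 and 14.2 CPM in Dnmt1 KO replicate 2, Frem2 was at 2.0 in place of 13.6 CPM, and Dach1 at 65.0 in place of 95.1 CPM. In the fit without these nuclei 5 genes were called, with Ldb2, Gm30382, Fam135b and Tox lower and Dach1 higher; Tox, also a leading gene of cluster 2, was named after its value was seen.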

How the data were processed

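Nuclei of snap-frozen medial neocortex were profiled by Evercode split-pool snRNA-seq in 4 libraries. The deposited values are raw transcript counts per nucleus and gene (unique molecules), made by the authors from reads aligned to mm39; per the labels, R 4.4.1 and Seurat 5.0.1.9001 were used. The study set its 1500 to 60000 range on reads per cell; here it was applied to transcripts, with the filter on reads as an alternative. Member counts ranged from 75 to 452 nuclei per library, and counts were summed per library. Genotype was tested in edgeR 4.0.16 (R 4.3.3) with filterByExpr, TMM factors and adjusted p under 0.05. The genes of the rule entered the fit and the adjustment but not the counts of tested and called genes. DESeq2 1.42.0 was an alternative. Doublets (scrublet in scanpy 1.11.5, expected rate 5%) marked 3.07% to 8.36% of nuclei and 6 members, and were left out only as an alternative. Clusters used 1500 variable genes and resolution 0.3, chosen after seeing the data. Scripts were tested on simulated data. Members and gene lists were chosen with earlier results of these data known. Named genes were the list genes, the 15 highest and 10 lowest ratios to other excitatory nuclei among genes at 50 CPM or more moving alike in 4 libraries, the 6 smallest p per direction where none was called, Dnmt1 and the rule genes. Zfp385d was not in the gene table. One gene of the lists is not reported here by name.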

Additional observations from a re-analysis of the deposited data

How the results depend on the processing

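With 2 libraries per genotype, calls depended on single libraries. For the genotype difference within members (0 calls), DESeq2 gave 27 with or without the 51 members with choroid plexus transcripts, no filter on low counts 595 and the filter on reads 2 (Rmst and Zfp536); leaving out 1 library gave 0 to 352 (352 without Dnmt1 KO replicate 1, 30 without Dnmt1 KO replicate 2), where a lone library is assumed to vary like the other group. Genes at least 5 times higher in the members with choroid plexus transcripts were 10 of the 27 DESeq2 calls (5 of 27 without those members), 393 of 595, 2 of 2, 308 of 352 and 7 of 30, beside 513 of the 11202 genes tested. For the interaction with other excitatory nuclei (0 calls), leaving out 1 library gave 0 to 493 (79 without Dnmt1 KO replicate 2), and leaving out the 51 members with choroid plexus transcripts gave 5. The other alternatives, the batch covariate and DESeq2 size factors among them, kept 0. The replicate block also gave 0 calls, with 560 unadjusted p under 0.05 in edgeR. Deviations of equally numbered libraries from their group means correlated at -0.0875. Deviations within a group of 2 mirror each other, so this single value cannot tell whether the numbers pair libraries. The difference in share was 0.706 to 2.27 points without 1 library. The percentage of members among members and Prox1 Zbtb20 nuclei is another quantity, at 90.7% ± 2.16 in Dnmt1 KO and 91.5% ± 0.02 in controls, a difference of -0.759 points with overlapping groups (p = 1.0, exact permutation). Under the filter on reads the share of control replicate 2 was 1.38%. The hippocampal list kept 4 genes under every alternative. Against other excitatory nuclei the dentate and caudal lists had 2 genes higher and the piriform list 1, and against those within the same limits the same counts held, with 1 for the rostral and layer 6 lists. Leaving out 1 library gave 1 to 2 for the dentate list and 0 to 1 for the piriform and layer 6 lists. A fold of 2 left 1 for the rostral list, a pseudocount of 1 CPM gave 1 for layer 5, and leaving out members low in Zbtb20 (under 10 transcripts) or with choroid plexus transcripts gave 1 for the piriform list. The alternatives on choroid plexus transcripts, Zbtb20, Prox1 and the same limits were chosen after seeing the data.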

Other observations

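Adhesion and receptor families not described above also differed between members and other excitatory nuclei, as a description of nuclei chosen by their counts. Of 12 type II and atypical cadherins, Cdh8 (1003 ± 105 against 533 ± 54.5 CPM) and Cdh20 were higher and 6 (Cdh6, Cdh7, Cdh11, Cdh12, Cdh13 and Cdh18) lower in every library, beside 3.72% and 3.05% of all genes. Cdh20 was at 149 and 60.6 CPM in the Dnmt1 KO members and 19.5 and 20.9 CPM in the control members (log2 fold change 2.35 ± 0.46, adjusted p = 0.71 in edgeR and 0.00059 in DESeq2, which called it, as did edgeR without Dnmt1 KO replicate 2). It is a leading gene of cluster 3, which held 36.4% and 29.0% of the Dnmt1 KO members and 17.3% and 18.6% of the control members, and the part of cluster makeup was not tested. Of the 5 kainate receptor subunits, Grik2 (1466 ± 232 against 845 ± 138 CPM) was higher beside Grik4, and Grik3 (74.2 ± 18.2 against 631 ± 87.2 CPM) was lower. The relatives Zfp385a and Zfp385c averaged 5.0 and 0.1 CPM in members, near the 4.9 and 0.1 CPM of the other excitatory nuclei.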
